A study of Mus musculus with 6 samples.

Results

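The genes described here are 9 genes of the interferon γ pathway: the receptor chain genes Ifngr1 and Ifngr2, the transcription factor gene Irf1, the guanylate-binding protein genes Gbp2, Gbp3 and Gbp7, and the immunity-related GTPase genes Igtp, Irgm1 and Irgm2. They were chosen by their roles in the pathway with their array values in view, among them the rises of Ifngr2 and Gbp3, so their differences are given as a description and without a test. A gene was measured where a probe set, the group of array probes that is summarised into a single value, was annotated to that symbol alone. This held for 6 of the 9 genes, with 7 probe sets, out of 19937 genes on the array. Gbp2 shares its probe set with Gbp2b, and Igtp and Irgm2 share theirs with each other, so these 3 genes have no value of their own and were not analysed here.

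The samples were pre-granulocyte-macrophage progenitors (PreGMs), myeloid progenitors of the bone marrow, from female C57BL/6 mice, whose age the labels do not give. The gate was Lin-Sca1-Kit+ and negative for CD150, CD41, FcgRII and Endog. There were 6 arrays, and the labels do not say whether each holds a single mouse or a pool. The p-values therefore set a difference against the spread between these arrays. In 3 arrays the label reads Cebpa flox/flox, a conditional allele of the gene for the myeloid transcription factor C/EBPα, and in 3 Cebpa flox/flox;Mx1Cre. All mice were sampled on day 18 after pIC, a double-stranded RNA mimic that induces type I interferon and, through the interferon-responsive Mx1 promoter, the Cre recombinase. That promoter is active in many cell types, so a deletion would not be limited to the sorted cells, and the control mice had pIC too.

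Interferon γ binds a receptor made of the ligand-binding chain IFNGR1 and the signalling chain IFNGR2. Signalling through the associated kinases JAK1 and JAK2 switches on genes with GAS elements in their promoters, among them Irf1, whose product acts through interferon-stimulated elements. Guanylate-binding proteins (GBPs) and immunity-related GTPases (IRGs) are among the strongest targets in mouse cells, where they attack vacuoles that hold intracellular pathogens. The ligand-binding chain is widely expressed, and in some immune cells the level of the signalling chain limits the response.

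The letters upstream of these genes were searched for short cores of the sites that the pathway uses. The 120 bases before the annotated start are printed below for the 5 genes the results turn on, from RefSeq on GRCm38.p6, 5′ to 3′ on the gene's strand. Capitals mark matches to the GAS core (TTCNNNGAA) or the interferon-stimulated core (GAAANNGAA), on either strand, and adjoining matches of the latter overlap by 3 bases in Gbp3 and Irgm1. The windows are chr16:91546939-91547058 (+ strand) for Ifngr2, chr11:53769894-53770013 (+ strand) for Irf1 at the first of its 2 annotated starts, chr3:142559924-142560043 (+ strand) for Gbp3 at the first of 2 starts, chr3:142530216-142530335 (+ strand) for Gbp7 and chr11:48871421-48871540 (- strand) for Irgm1.
Ifngr2: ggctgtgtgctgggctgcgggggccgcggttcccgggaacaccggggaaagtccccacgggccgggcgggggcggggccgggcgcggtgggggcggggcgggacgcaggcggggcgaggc
Irf1: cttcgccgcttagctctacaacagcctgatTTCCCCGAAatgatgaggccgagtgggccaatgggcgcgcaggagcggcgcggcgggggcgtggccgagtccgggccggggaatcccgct
Gbp3: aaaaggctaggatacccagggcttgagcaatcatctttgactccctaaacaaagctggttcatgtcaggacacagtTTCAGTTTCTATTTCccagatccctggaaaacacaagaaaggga
Gbp7: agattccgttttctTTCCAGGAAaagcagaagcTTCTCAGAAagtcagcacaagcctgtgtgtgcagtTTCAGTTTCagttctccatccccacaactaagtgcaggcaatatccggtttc
Irgm1: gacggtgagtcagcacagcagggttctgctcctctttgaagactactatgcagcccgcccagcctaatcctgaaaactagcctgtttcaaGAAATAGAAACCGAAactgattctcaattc

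Of the 11 start regions of the 9 genes, each from 250 bases before to 50 after a start, 4 held the GAS core and 6 the interferon-stimulated core. Over all 32851 such regions of the RefSeq table the shares were 8.30% and 8.56%. Irf1 had a GAS core at positions -90 to -82, counted from the start, and no interferon-stimulated core. Gbp7 had 2 GAS cores and an interferon-stimulated core at -52 to -44. Gbp3 had overlapping interferon-stimulated cores at -44 to -36 and -38 to -30 and no GAS core. Irgm1 carried the same kind of overlapping pair at -30 to -22 and -24 to -16. The regions of Ifngr1 and Ifngr2 matched neither motif, nor did the second start of Gbp3 or of Irf1. Among the genes without a value of their own, Igtp and Irgm2 each had a GAS core 2 bases ahead of an interferon-stimulated core, and Gbp2 had an interferon-stimulated core alone. A core of the sites that C/EBP factors bind (TTGCNNAA), searched after the values were known, was found in the first Gbp3 start region only, at -98 to -91, against 10.8% of all regions. A core of the sites of the myeloid factor PU.1 (GAGGAAG), also searched afterwards, was in 0 of the 11 regions, against 13.6% of all. A match is a stretch of letters and not a measured binding site.

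**Figure D1:**
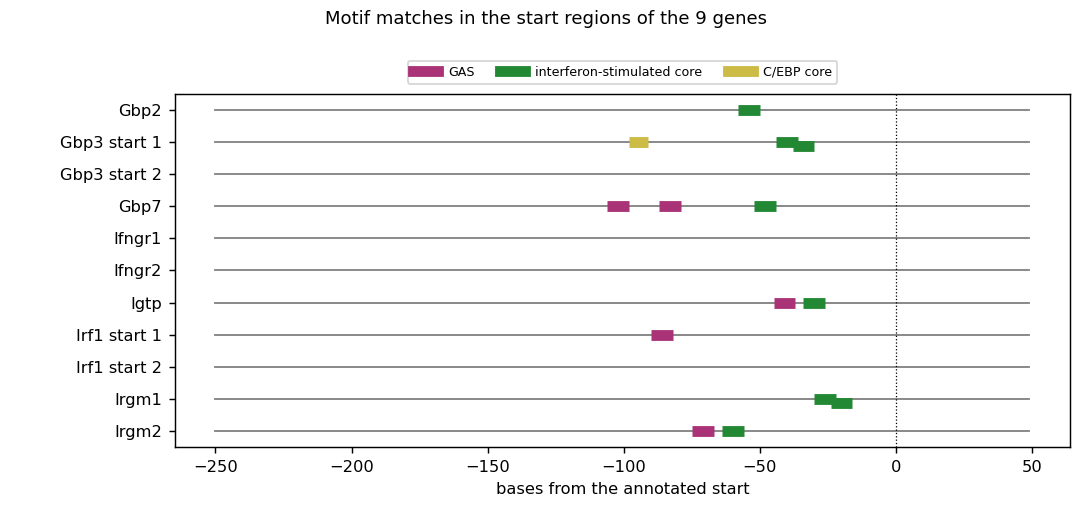
Matches to the GAS core, the interferon-stimulated core and the C/EBP core along the 11 annotated start regions of the 9 genes, with the distance from the start in bases on the horizontal axis. Matches lie upstream of the start in Gbp2, Gbp3, Gbp7, Igtp, Irf1, Irgm1 and Irgm2, and the lines of Ifngr1 and Ifngr2 are empty.

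The genotype labels need a caution before any direction is read. Cebpa, the gene the study set out to delete, read 6.93, 6.71 and 6.85 under the flox/flox label and 8.71, 9.31 and 8.98 under Mx1Cre, so it was 4.50-fold higher where a deletion would lower it. Where its probes lie relative to the deleted part was not used here. Every direction below follows the labels as deposited and would turn if they were exchanged. With limma, 979 of the 19937 genes had an adjusted p below 0.05, of which 525 were higher under Mx1Cre and 454 lower. Of the gate's genes Kit, the stem cell factor receptor, had means of 10.46 and 10.61 log2 units and missed the threshold (limma adjusted p = 0.513). So did Eng, Itga2b and Slamf1, for the excluded endoglin, CD41 and CD150. Fcgr2b, for the excluded FcγRII, rose 1.34-fold (limma adjusted p = 0.0410), Cd34 rose 2.01-fold (0.000692) and Fcgr3 fell 2.06-fold (0.00970).

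The signalling chain gene Ifngr2 and the GTPase gene Gbp3 stood about 3-fold higher in the arrays labelled Mx1Cre, whereas Ifngr1 and Irf1 hardly differed and Gbp7 and Irgm1 were slightly lower. The values of the labels did not overlap for 2 of the 6 measured genes. Over all genes 21.6% do not overlap, and nothing is read from the 2, which were known when the genes were chosen. The differences ran from -0.40 log2 units for Irgm1 to 1.62 for Ifngr2, with a median of 0.02 over the 6 genes and of -0.01 over all genes. A level here is a log2 value made by RMA, a method that puts the arrays on a common scale, and levels are compared between arrays and never between genes. In sorted bulk cells, fewer cells of a type and less RNA per cell cannot be told apart.

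**Figure D2:**
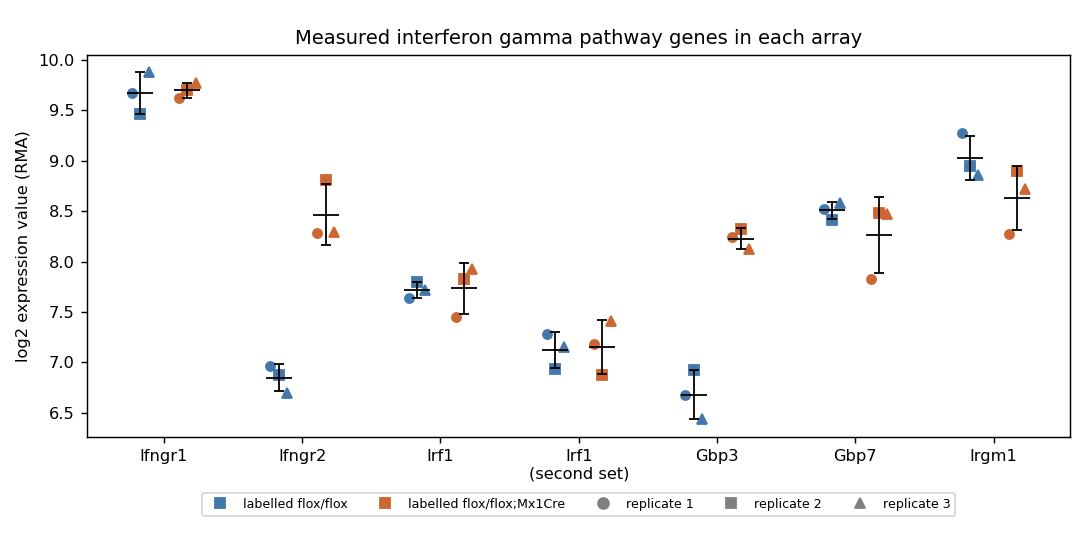
Log2 expression values of the 6 measured genes, with both probe sets of Irf1, in every array (symbols by replicate, bars for the mean and SD of 3 arrays, vertical axis not starting at 0). Ifngr2 and Gbp3 lie above every flox/flox value in all 3 arrays labelled Mx1Cre, while the other genes overlap.

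Ifngr1 (probe set 10361897) encodes the chain that binds the cytokine. Its log2 values were 9.68, 9.46 and 9.88 in the arrays labelled flox/flox and 9.63, 9.70 and 9.77 in those labelled Mx1Cre, replicates 1 to 3. The labels overlapped fully, all Mx1Cre values falling between the lowest and the highest flox/flox value. The means were 9.67 ± 0.21 and 9.70 ± 0.07 (SD, n = 3 each), a difference of 0.03 ± 0.11 log2 units (limma SE). It ran from -0.08 to 0.13 when an array was left out, so its sign was not fixed.

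Ifngr2 (probe set 10436865), the gene of the chain that brings JAK2 to the receptor, behaved otherwise. Its values were 6.96, 6.88 and 6.70 in the flox/flox arrays and 8.28, 8.81 and 8.29 in the Mx1Cre arrays. The lowest Mx1Cre array lay 1.32 log2 units above the highest flox/flox array, and Mx1Cre replicate 2 was the highest of the 6. The means, 6.85 ± 0.13 and 8.46 ± 0.30 (SD, n = 3 each), differed by 1.62 ± 0.14 log2 units (limma SE), which is 3.07-fold. Without any single array the difference lay between 1.44 and 1.71. By size of difference it ranked 48 among 19937 genes, which describes how it came to be chosen.

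Irf1, a transcription factor gene and an early target of the receptor, was read by 2 probe sets. With the brighter set (10376060) the values were 7.64, 7.80 and 7.71 in the flox/flox arrays and 7.45, 7.83 and 7.92 in the Mx1Cre arrays. Mx1Cre replicate 1 was the lowest of the 6 and replicate 3 the highest, so the labels overlapped, with a difference of 0.02 ± 0.12 log2 units (limma SE). The second set (10385870) gave 7.28, 6.93 and 7.15 against 7.19, 6.87 and 7.41, a difference of 0.03 ± 0.16. On that set it was Mx1Cre replicate 2 that read lowest, so the sets did not order the arrays alike. Leaving out an array moved the first set's difference between -0.08 and 0.16.

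Gbp3 (probe set 10496580) encodes a guanylate-binding protein. It read 6.67, 6.92 and 6.44 in the flox/flox arrays and 8.24, 8.32 and 8.12 in the Mx1Cre arrays. A gap of 1.20 log2 units parted the labels, and the Mx1Cre arrays lay closer together (SD 0.10, n = 3) than the flox/flox arrays (SD 0.24, n = 3). The difference of 1.55 ± 0.13 log2 units (limma SE), 2.93-fold, ranked 51 among all genes, and it stayed between 1.43 and 1.68 without any single array.

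Gbp7 (probe set 10496569), which encodes another guanylate-binding protein and lies next to Gbp3 on chromosome 3, did not follow it. Its values were 8.53, 8.41 and 8.59 in the flox/flox arrays and 7.82, 8.49 and 8.47 in the Mx1Cre arrays. Only Mx1Cre replicate 1 lay below the flox/flox range, and the other two arrays of that label lay within it. The difference of -0.25 ± 0.16 log2 units (limma SE) shrank to -0.03 without Mx1Cre replicate 1 and was between -0.36 and -0.21 without any other array. Guanylate-binding protein genes resemble each other, and probes that read more than 1 of them were not checked here.

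Irgm1 (probe set 10385500) encodes an IRG that acts as a regulator, keeping effector IRGs inactive on the cell's own membranes. It read 9.28, 8.95 and 8.86 in the flox/flox arrays and 8.28, 8.90 and 8.72 in the Mx1Cre arrays. Mx1Cre replicate 2 lay just inside the flox/flox range, and replicates 1 and 3 lay below it. The means were 9.03 ± 0.22 and 8.63 ± 0.32 (SD, n = 3 each), a difference of -0.40 ± 0.16 log2 units (limma SE). Without Mx1Cre replicate 1 it was -0.22, and the range over all single omissions was -0.53 to -0.22.

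Within the Mx1Cre label the genes varied from array to array in a way that their means hide. Replicate 1 was the lowest Mx1Cre array for Ifngr1, Ifngr2, Irf1, Gbp7 and Irgm1, though for Ifngr2 it was nearly level with replicate 3. Its deviation from the label mean was -0.44 log2 units for Gbp7, -0.35 for Irgm1 and -0.28 for Irf1. Gbp3 was 0.01 above its own mean in that array. Mx1Cre replicate 2 stood 0.35 log2 units above the mean for Ifngr2, 0.27 for Irgm1 and 0.22 for Gbp7. The mean over 30 type I interferon response genes was 7.80 in Mx1Cre replicate 1, against 8.18 and 7.97 in replicates 2 and 3. In the flox/flox arrays it was 8.25 to 8.32. This was not particular to the type I list, since 6 of the 7 gene lists had their lowest Mx1Cre mean in replicate 1. So did the markers of the gate and of T and NK cells, B cells, erythroid cells and megakaryocytes. Monocyte and macrophage, neutrophil and dendritic cell markers were instead lowest in replicate 3. Their means there were 6.78, 6.33 and 6.76, against 6.82, 6.71 and 6.81 in replicate 1. With 3 arrays a label this is a description of these arrays.

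**Figure D3:**
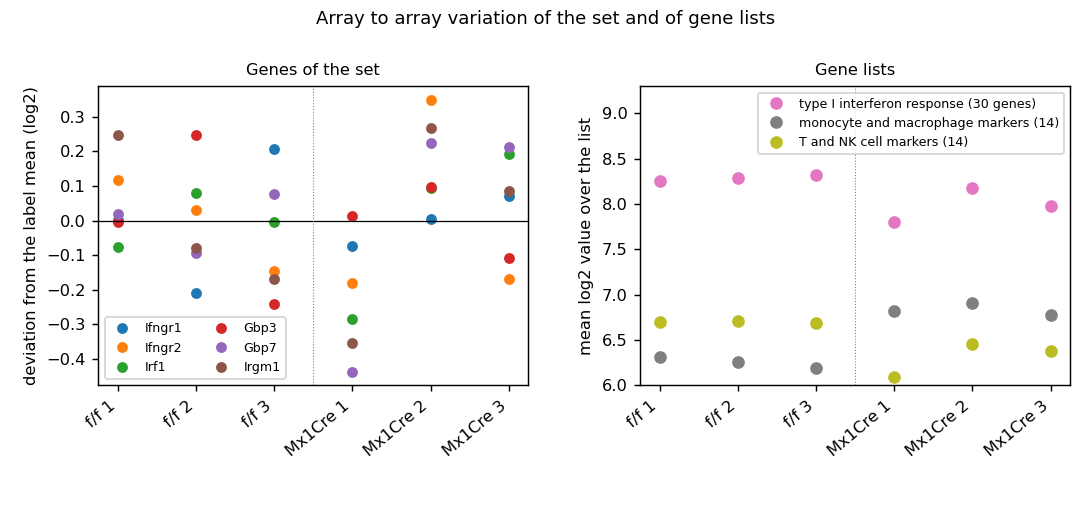
Left, deviation of the 6 measured genes from their label mean in each array (log2 units). Right, mean log2 value per array of the type I interferon response list and of 2 marker lists, with Gzmb among the T and NK cell markers; Mx1Cre replicate 1 is lowest for Gbp7, Irgm1 and Irf1 on the left and for the type I response and the T and NK cell markers on the right.

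Measured by how closely a gene's 6 centred values follow those of Ifngr2, as a root mean square distance in log2 units, the nearest genes were Ccr2 (0.113), Nrp1 (0.116), Nucb2 (0.123), Csf1r (0.151) and Gbp3 (0.174). Ccr2 encodes a chemokine receptor of monocytes, Nrp1 a co-receptor for semaphorins and vascular growth factors, and Csf1r the receptor of the macrophage growth factor. For Gbp3 they were Nrp1 (0.129), Ifngr2 (0.174), Tifab (0.189), Irf8 (0.191) and Ms4a6b (0.199). Ifngr2 and Gbp3 were each in the other's first 5, and Ifngr1 lay at 0.834 from Ifngr2 and Gbp7 at 0.949 from Gbp3. The distance is carried mostly by the step between the labels, which was known when Ifngr2 and Gbp3 were chosen. Nothing is read from their closeness.

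Around these genes, Jak1, Jak2 and Stat3 were lower in the arrays labelled Mx1Cre, and the other ligand and signalling genes missed the threshold. Of 15 measured genes of the ligand and signalling list, 3 fell, 0 rose and 12 did not pass, which is 20.0% against 4.91% of all genes called (2.28% lower), and the list's median difference was -0.18 log2 units. Jak1, the kinase bound to IFNGR1, read 11.27, 10.99 and 11.13 in the flox/flox arrays and 10.62, 10.69 and 10.69 in the others, and fell by 0.46 ± 0.10 log2 units (SE, limma adjusted p = 0.0236). Jak2, the kinase bound to IFNGR2, read 9.87, 9.76 and 9.77 against 9.17, 9.43 and 9.42 and fell by 0.46 ± 0.10 (limma adjusted p = 0.0268). Stat3, a transcription factor that JAK kinases activate, fell by 0.60 ± 0.11 (limma adjusted p = 0.0120). The labels did not overlap for any of these 3 genes.

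These 3 falls depend on the full set of arrays, and 0 genes of the list passed in limma without flox/flox replicate 1 or 3. The limma adjusted p of Jak1 passed without flox/flox replicate 2 (0.0234) and missed without any other array, at 0.0576 to 0.0881. That of Jak2 passed without Mx1Cre replicate 2 (0.0436) and missed otherwise, at 0.0584 to 0.0989. Stat3 missed without flox/flox replicate 1 (0.0526) and without flox/flox replicate 3 (0.0579), and over all alternatives the 3 genes lay between 0.00614 and 0.130. Ifng, the ligand, showed no difference past the test, at 6.17 ± 0.04 and 6.12 ± 0.04 (SD, n = 3 each, limma adjusted p = 0.856). The filter at the median level (6.64) dropped it, and without a detection call it is not shown that Ifng was expressed. Socs1, the feedback inhibitor of JAK kinases that interferon γ induces, differed by 0.04 ± 0.08 log2 units (SE, limma adjusted p = 0.885).

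**Figure D4:**
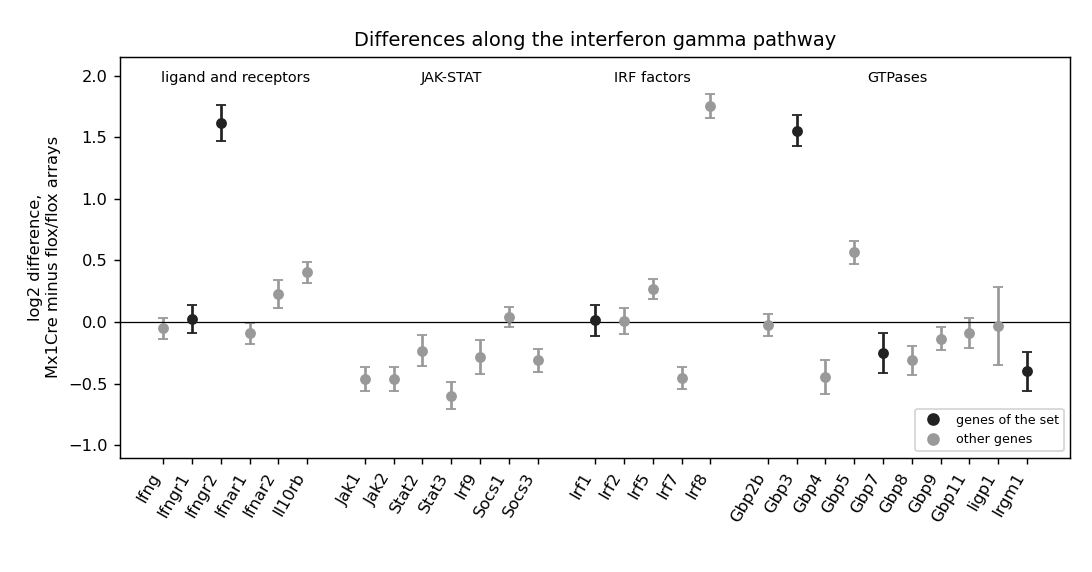
Log2 difference, arrays labelled Mx1Cre minus flox/flox, with limma's standard error as bars, for ligand and receptors, JAK-STAT genes, IRF genes and GTPases (black, genes described here; grey, other genes). Ifngr2, Irf8 and Gbp3 stand near 1.6 to 1.8, and Gbp5 and Il10rb between 0.4 and 0.6. Jak1, Jak2, Stat3, Irf7, Gbp4 and Irgm1 stand between -0.6 and -0.4. Of these Gbp4 missed the threshold (limma adjusted p = 0.121) and Irgm1 was not tested.

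Ifngr2 belongs to the class II cytokine receptors, and several of these lie beside it on chromosome 16. The family has 10 other measured genes on the list, of which 1 rose, 0 fell and the remaining 9 missed the threshold, against 2.63% of all genes called higher. The gene that rose was Il10rb, a chain shared by the interleukin-10 and interferon λ receptors, at 7.64 ± 0.06 and 8.04 ± 0.02 (SD, n = 3 each), a difference of 0.40 ± 0.08 log2 units (SE, limma adjusted p = 0.0227). It passed without Mx1Cre replicate 1 (0.0425) and missed without any other array, at 0.0620 to 0.0911. The type I interferon receptor genes Ifnar1 and Ifnar2 missed the threshold at -0.09 ± 0.08 and 0.23 ± 0.12 (log2 difference ± SE, limma adjusted p 0.685 and 0.381).

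Chromosomal order sets Ifngr2 after Ifnar2, Il10rb and Ifnar1 and before Tmem50b, Dnajc28 and Gart among the measured genes. Tmem50b, for a membrane protein, is the next measured gene and rose too, with values of 7.01, 7.04 and 7.59 in the flox/flox arrays and 8.25, 8.33 and 8.52 in the Mx1Cre arrays. Its difference was 1.15 ± 0.15 log2 units or 2.22-fold (SE, limma adjusted p = 0.00205), and its groups did not overlap. Without any single array its limma adjusted p was at most 0.0110. Dnajc28, one place further, differed by 0.01 ± 0.12 log2 units, and Gart, a purine synthesis gene, by 0.44 ± 0.11 (limma adjusted p 0.989 and 0.0580). Ifnar1 and Dnajc28, which missed the threshold, thus flank Ifngr2 and Tmem50b.

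Over the 3 nearest measured genes on each side of all 9 genes, 37 in all, 5 rose, 0 fell and 32 did not pass, against 2.63% of all genes called higher. Beside Tmem50b and Il10rb these were Gbp5 and Pdlim5 near the GBP genes on chromosome 3 and Slc35d3 near Ifngr1 on chromosome 10. Pdlim5, for a scaffold protein of the cytoskeleton, rose by 0.65 ± 0.14 log2 units (SE, limma adjusted p = 0.0255) and Slc35d3, for a transporter family protein, by 0.51 ± 0.12 (0.0468). Pdlim5 missed without flox/flox replicates 1 or 2 or Mx1Cre replicates 2 or 3 (0.0791 to 0.104), and Slc35d3 without any array but Mx1Cre replicate 2 (0.0784 to 0.170). The count of 5 was 2 without flox/flox replicate 1 or 2 or Mx1Cre replicate 3, and 3 without flox/flox replicate 3 or Mx1Cre replicate 2.

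**Figure D5:**
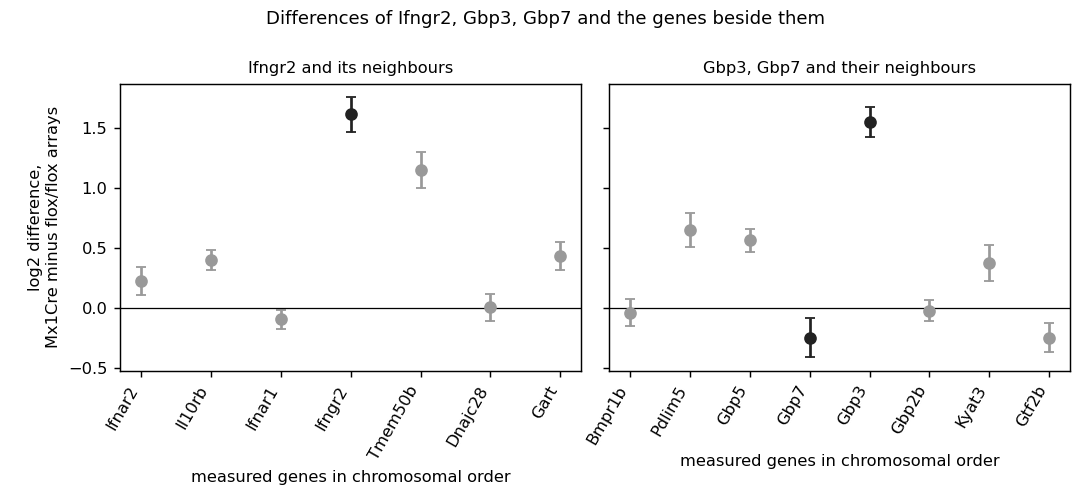
Log2 differences (arrays labelled Mx1Cre minus flox/flox, bars for limma's standard error) of measured genes in chromosomal order around Ifngr2 (left) and around Gbp3 and Gbp7 (right); black marks genes described here. Ifngr2 and Tmem50b stand at 1.62 and 1.15 between genes near 0. Gbp3 stands at 1.55 between Gbp7 and Gbp2b, neither of which is higher. Gbp2b is a dim gene, below the lower quartile of all genes.

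Among other interferon-inducible GTPases Gbp5 alone passed the test. Of 24 genes of that list 13 had a value of their own, of which 1 rose, 0 fell and 12 did not pass, with a median difference of -0.03 log2 units. That is 7.69% of the 13, near the 4.91% of all genes called. The gene that rose was Gbp5, whose product promotes inflammasome assembly. It read 6.28, 6.42 and 6.28 in the flox/flox arrays and 6.79, 6.98 and 6.90 in the Mx1Cre arrays, a difference of 0.57 ± 0.09 (log2 ± SE, limma adjusted p = 0.00646). The call held whichever array was omitted and was lost with all probe sets in the fit (0.0530). Across the 4 guanylate-binding genes of the chromosome 3 cluster measured singly, the order of the differences was Gbp3 (1.55), Gbp5 (0.57), Gbp2b (-0.02) and Gbp7 (-0.25). Gbp2b was dim, with means of 5.10 and 5.08, below the filter on dim genes at the lower quartile (5.63). Differences of dim genes tend to be understated. Whether Gbp3 differs from Gbp7 in its response was not tested, since both were chosen with these values known.

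Other targets of interferon γ went in either direction. Of 38 measured genes 2 rose, 2 fell and 34 did not pass, with a median of 0.03 log2 units. The called share was 10.5%, against 4.91% of all genes. Irf8, a transcription factor that interferon γ induces and that monocyte and dendritic cell progenitors also need, read 6.44, 6.66 and 6.63 against 8.24, 8.39 and 8.35 and rose 3.37-fold (1.75 ± 0.10 log2 units, SE, limma adjusted p = 7.6e-06). Cybb, the catalytic subunit of the phagocyte oxidase, rose 2.22-fold (limma adjusted p = 0.00143), from 5.35 ± 0.25 to 6.51 ± 0.21 (SD, n = 3 each). Irf7, a factor of the type I interferon response, fell 1.37-fold (limma adjusted p = 0.0148) and Upp1, uridine phosphorylase, 1.62-fold (0.00936). Irf7 missed without flox/flox replicate 1 (0.0607), flox/flox replicate 2 (0.0501) or Mx1Cre replicate 3 (0.0638). Ciita, the activator of major histocompatibility class II genes and a classical target, did not pass (-0.09 ± 0.09 log2 units, limma adjusted p = 0.722). The class II genes H2-Aa, H2-Ab1 and H2-Eb1 were higher under Mx1Cre by 0.93, 0.64 and 0.34 log2 units, and Cd74 by 0.51. They missed the threshold (limma adjusted p 0.0647, 0.144, 0.146 and 0.205). Without Mx1Cre replicate 1 the called genes of this list numbered 7, of which 5 were higher under Mx1Cre. Of 10 further IRF and partner factor genes 0 passed in limma and 2 had an unadjusted p below 0.05, with differences from -0.11 to 0.50 log2 units. The largest was that of Spi1, which encodes PU.1, a partner of IRF8 (limma adjusted p = 0.0502).

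Type I interferon response genes, set beside the interferon γ genes because all mice had pIC, fell or did not pass. Of 30 measured genes 6 fell and 0 rose, with a median of -0.26 log2 units and differences from -1.48 to 0.37. The groups of 15 did not overlap, all lower under Mx1Cre but Phf11d, which was 0.34 log2 units higher (limma adjusted p = 0.0742). Of all genes 2.28% were called lower and 21.6% did not overlap. Rtp4 fell by 1.48 ± 0.22 log2 units (SE, limma adjusted p = 0.00408) and Usp18, which dampens interferon signalling, by 1.20 ± 0.16 (0.00229). Ddx58, the RNA sensor RIG-I, fell by 0.80, Ifit1 by 0.86, Parp9 by 0.48 and Sp100 by 0.37 (limma adjusted p 0.00930, 0.0214, 0.0454 and 0.0326). Rtp4 read 7.98, 9.07 and 8.38 in the Mx1Cre arrays, lowest in replicate 1 and highest in replicate 2, as Gbp7 and Irgm1 also were. The count of 6 was 3 without flox/flox replicate 3 or Mx1Cre replicate 3, and 4 without flox/flox replicate 1 or 2. Ifit1 missed without flox/flox replicate 2 (0.0678), flox/flox replicate 3 (0.0817) or Mx1Cre replicate 3 (0.0709). Of the 6 single omissions Sp100 passed only in that of Mx1Cre replicate 1 and Parp9 only in that of Mx1Cre replicate 2, and in the others they reached 0.133 and 0.147.

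Some genes used as markers of other cell types also differed between the labels. Which cells expressed them was not measured. Over all genes 2.63% were called higher and 2.28% lower, and the marker counts here stand beside these shares. Of 14 measured monocyte and macrophage markers 7 rose and 0 fell, among them Csf1r (3.67-fold, limma adjusted p = 1.97e-05) and Ccr2 (3.26-fold, 0.000154). The mean level of the list was 6.19 to 6.32 in the flox/flox arrays and 6.78 to 6.90 in the Mx1Cre arrays. The others that rose were Mpeg1 (2.32 log2 units, 2.84e-06), Cd68 (2.42-fold, 0.000661), Cx3cr1 (1.49-fold, 0.00851), Adgre1 (1.43-fold, 0.0126) and Cd163 (1.34-fold, 0.0376). The remaining 7, C1qa, C1qb, C1qc, Marco, Mertk, Siglec1 and Vcam1, missed the threshold. Of 9 neutrophil markers 4 rose and 0 fell, with list means of 5.35 to 5.54 and 6.33 to 6.78. Of 14 T and NK cell markers, cells that make interferon γ, 1 fell, Gzmb (21.9-fold, limma adjusted p = 5.39e-05), and 0 rose, with list means of 6.69 to 6.71 and 6.10 to 6.45. Without Gzmb, left out after its value was seen, the means of the other 13 overlapped, at 6.33 to 6.39 and 6.12 to 6.38. Of 7 dendritic cell markers 1 rose and 0 fell, and none of the measured B cell, erythroid and megakaryocyte markers (5, 5 and 4) passed. The part of the monocyte, neutrophil or lymphoid markers in the differences of Ifngr2 and Gbp3 was not tested.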

How the data were processed

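The data are log2 values of 34760 probe sets on 6 arrays. The authors made these deposited log2 values with RMA and the affy software, per the submitters' processing notes; the sources used here do not give versions, chip definition or genome build. RMA pulls dim values together, so differences of dim genes tend to be understated, and no detection call was used. The number of arrays limits the precision.

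Symbols came from the platform annotation, which can be old: 21640 probe sets had 1 symbol, 1321 several and the rest none here. Of the 21640, 21553 matched the RefSeq gene table (GRCm38.p6) by Entrez number. The probe set with the highest mean stood for a gene, giving 19937 genes. Differences are the mean of the arrays labelled Mx1Cre minus that of the arrays labelled flox/flox. They were fitted with limma 3.58.1 in R 4.3.3 (lmFit, eBayes) on all genes, adjusted by Benjamini-Hochberg, and called at an adjusted p under 0.05. The fit was tested on simulated data.

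The 9 genes, the lists and the tests were chosen with earlier results of these data known. The naming rule takes all 9 genes, Cebpa, up to 3 called genes at each end of each list, called neighbours, the 5 nearest profiles of the 2 genes with the largest differences, and Ifng, Jak1, Jak2, Socs1, Ifnar1, Ifnar2, Il10rb, Irf8 and Ciita. Markers, Spi1, Dnajc28, Gart, Gbp2b, Gbp4, Phf11d, H2-Aa, H2-Ab1, H2-Eb1 and Cd74 were named outside it, after their values were seen. The nearest profiles left out genes with provisional names. Alternatives were 2 filters on dim genes, cyclic loess, median centring, a replicate block, 2 other choices of probe set, a trended robust prior, array weights, all probe sets in the fit, and leaving out each array. A comparison of the proteins was not made, and 1 gene that the rule names is not reported here.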

Additional observations from a re-analysis of the deposited data

How the results depend on the processing

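The differences of Ifngr2, Gbp3, Gbp7 and Irgm1 kept their sign under median centring, cyclic loess, both other choices of probe set and each single omission. Those of Ifngr1 and Irf1 changed sign in 2 and 3 of the single omissions. All 979 calls became 244 with all probe sets in the fit, where both the features tested and the variance estimate pooled over them change. They became 538 to 785 without 1 array, where fewer arrays are fitted. With the replicate block, 1089 genes passed and no list count moved by over 1.5 times. The numbers are not known to pair the arrays, whose deviations correlated at 0.188, 0.0515 and 0.174 for replicates 1, 2 and 3. Every array correlated best with its own number except Mx1Cre replicate 2, which did so with flox/flox replicate 3 (0.124). With all probe sets the called genes numbered 0 of the ligand and signalling list, 0 of the class II receptors, 0 of the other GTPases, 2 of the other interferon γ targets, 1 of the type I response and 1 of the neighbours. With array weights they were 2 GTPases, 8 other targets and 10 type I response genes, and above the median level 0 GTPases and 1 other target, where fewer genes are tested. For the IRF and partner list 1 gene passed in place of 0 with cyclic loess, above the lower quartile, above the median, with the mean of a gene's probe sets, with the trended robust prior and with array weights. Causes of these changes were not tested. Without 1 array the counts were 0 to 2 for ligand and signalling, 0 to 1 for class II receptors, 1 to 2 for GTPases, 3 to 7 for other targets, 3 to 6 for the type I response, 0 to 1 for IRF factors and 2 to 4 for neighbours.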
